A study of Mus musculus with 8 samples.

Results

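Annexins and S100 proteins are 2 families of calcium sensors, and 10 of their genes were followed in mouse small intestinal organoids with and without RANKL. The 10 members were taken by symbol from a list, 7 annexins (Anxa1, Anxa2, Anxa3, Anxa4, Anxa5, Anxa11 and Anxa13) and 3 S100 genes (S100a6, S100a10 and S100a11), out of 54532 genes in the count table. The list was chosen with earlier results of these data known, so the share of members called is not that of a random sample. Bulk 3′ mRNA sequencing covered 4 libraries of control organoids and 4 libraries of RANKL-treated organoids. Both groups were epithelial cultures grown from crypts in a gel with EGF, NOGGIN and R-spondin, without stroma or immune cells. The study's methods keep its mouse lines on a C57BL/6J background, and the labels give no genotype, strain or age for the mice behind these organoids. RANKL is a TNF family cytokine that binds the receptor RANK, and the dose and duration used for these libraries are not named in the sources used here. The sources also do not say whether the 4 libraries of a group came from separate mice or cultures, so p-values measure only the spread between these libraries, which may be technical. In whole organoids, fewer cells of a type and less RNA per cell cannot be told apart.

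Annexins share a folded core that binds acidic phospholipids when calcium rises, and each carries its own N-terminal tail. S100 proteins are small dimers built from EF hands, the calcium-binding loops also found in calmodulin, and several of them hold annexin tails. The pair of annexin A2 and S100A10 is a known bridge between membranes and the actin cortex. In the gut epithelium, annexins are best known at the brush border, in the sorting of vesicles to the apical surface and in the repair of torn membranes.

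The promoters of members were searched for 3 short motifs, because NF-κB and AP-1 are transcription factors known to act downstream of RANK, and TEAD factors are the DNA-bound partners of YAP in the intestinal epithelium. RefSeq promoters of GRCm38.p6, from 250 bases before to 50 bases after the start, were given for 7 of the 10 members, with 2 promoters for Anxa4. The NF-κB motif was searched by its consensus, AP-1 as TGANTCA and TEAD as GGAATG, on both strands. TGANTCA reads the same on both strands, and none of the matches overlapped another. The stretches with a match are printed 5′ to 3′ on the strand of the gene, with the motif in capitals and 10 bases on each side.
Anxa4, NF-κB, chr6:86793620-86793649, minus strand: tctccggggaGGGACTTTCCtgtgggcaaa
S100a11, AP-1, chr3:93520350-93520376, plus strand: agagacctgtTGAGTCAcagggactac
S100a11, AP-1, chr3:93520448-93520474, plus strand: gggcacagccTGAGTCAggctgagggg
Anxa2, AP-1, chr9:69453578-69453604, plus strand: ccaagttggaTGAGTCAcccagcaggg
Anxa1, TEAD, chr19:20390892-20390917, minus strand: tgcactgaacCATTCCtgtgaggaat
The NF-κB match of Anxa4 lay 55 to 46 bases before the start. The S100a11 matches lay 136 to 130 and 38 to 32 bases before it, and that of Anxa2 95 to 89 bases before it. The TEAD match of Anxa1, on the strand opposite to the gene, lay 236 to 231 bases before its start. These distances are from the RefSeq start of each promoter, which can differ from the outermost GENCODE start of a gene. For Anxa1 the match lies inside the GENCODE span of the gene, chr19:20373428-20390944 on the minus strand. Among all 32851 promoters of the same length, 4.51% held the NF-κB motif, 7.81% AP-1 and 14.7% TEAD. The windows of Anxa5, Anxa11 and S100a6 and the second promoter of Anxa4 held none of these letters. A match describes the sequence only, and no binding was measured.

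Depth set how well each member could be read. The deposited counts summed to between 583663 and 7807298 per control library and between 613135 and 1923354 per RANKL library. Values are CPM, the counts of a gene scaled to a common library total after TMM normalization. The 3′ method reads each transcript near its end, so long and short genes can be set side by side. The receptor gene Tnfrsf11a was present in both groups, at 31.0 ± 6.41 CPM without and 156 ± 11.2 CPM with RANKL (SD, n = 4 each). The gene of the ligand, Tnfsf11, had 0 counts in all 8 libraries. All 6 general epithelial markers passed the filter, at a summed level of 6698 to 7833 CPM in control and 6387 to 6942 CPM in RANKL libraries. Summed markers of fibroblasts and smooth muscle were at most 15.5 CPM in any library, immune markers at most 14.5 CPM and endothelial markers at most 3.44 CPM.

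With RANKL, Anxa5, S100a11 and S100a10 were higher, Anxa4 and S100a6 were lower, and the abundant Anxa2 and Anxa13 did not pass the test. Of the 10 members, 8 had enough counts for the test and 5 of these passed it, 3 higher and 2 lower (edgeR's quasi-likelihood test, Benjamini-Hochberg adjusted p under 0.05 over 9971 genes). Among all genes tested, 25.9% passed, 13.6% higher and 12.4% lower. The DESeq2 Wald test and limma-voom also gave 3 higher and 2 lower members. The median log2 fold change of the 8 members was 0.09, beside 0.00 for all genes tested. The members that moved were of both families and both directions.

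**Figure D1:**
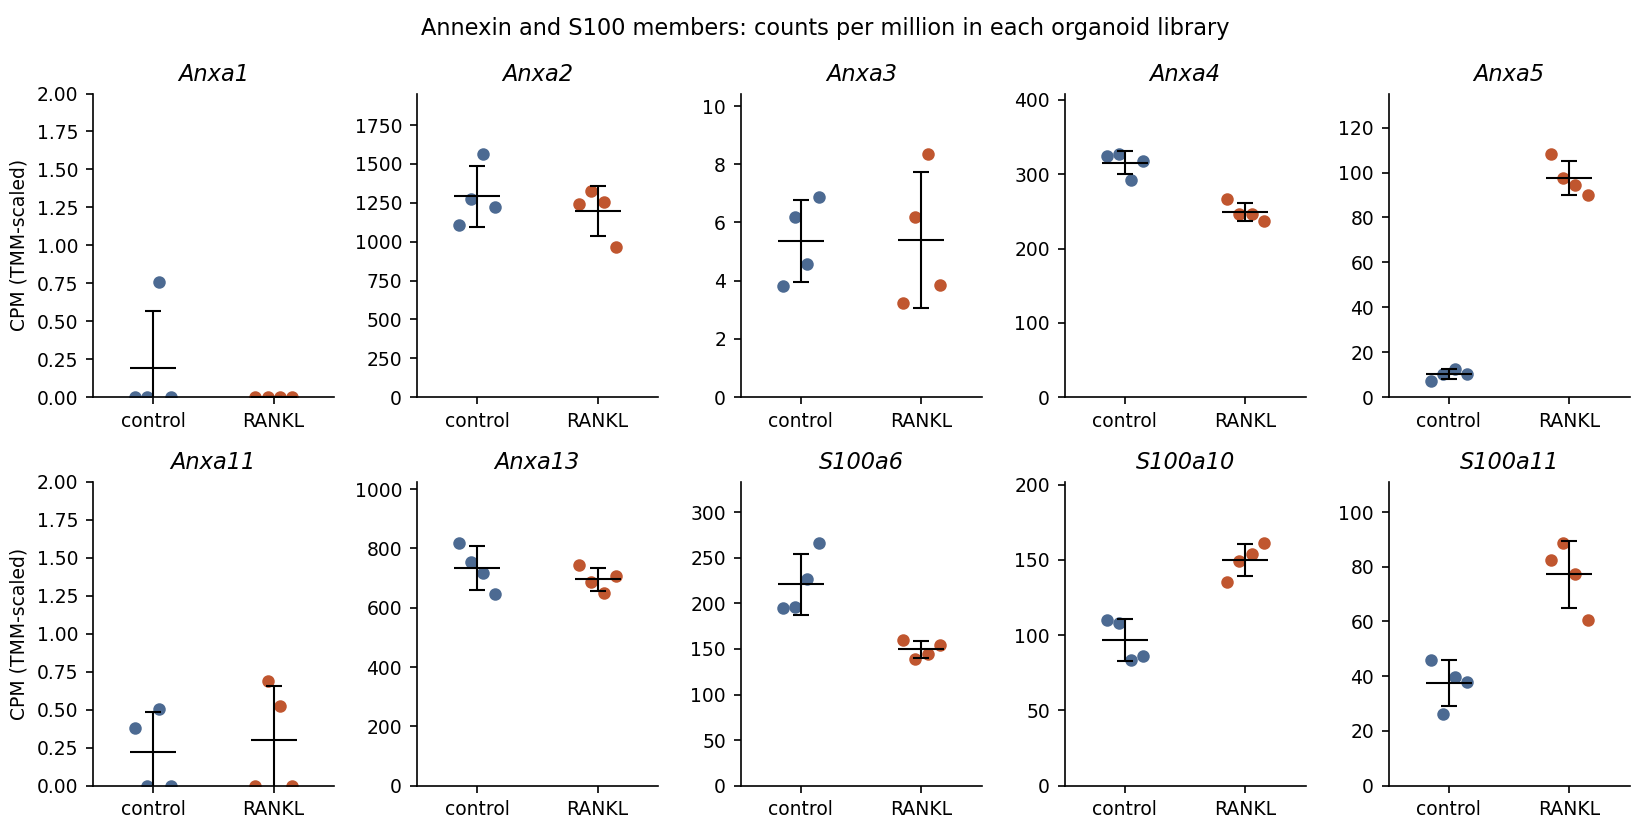
Levels (CPM, TMM-scaled, linear axes from 0) of the 10 members in each of the 4 control (blue) and 4 RANKL (orange) libraries, where each point is a library and the bars are mean and SD. The groups stand apart for Anxa5, S100a11 and S100a10, which are higher with RANKL, and for Anxa4 and S100a6, which are lower.

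Anxa5 had the widest change of the members. Annexin A5 binds phosphatidylserine, the lipid that dying cells expose, and is widely used as a stain for them. In control replicates 1 to 4 it was at 7.26, 10.2, 12.7 and 10.3 CPM, and in RANKL replicates 1 to 4 at 108, 97.7, 94.4 and 90.1 CPM. Every RANKL library lay far above every control library, and the libraries within a group lay close together. The means were 10.1 ± 2.22 and 97.6 ± 7.72 CPM (SD, n = 4 each). The log2 fold change fitted by edgeR was 3.31 (standard error 0.17, 95% interval 2.97 to 3.66, adjusted p = 5.1e-16), a fitted fold of 9.93. Folds given for members are such fitted folds, which differ slightly from the ratio of the mean CPM. The exact two-sided permutation test over 70 assignments of the libraries gave p = 0.0286, the smallest it can give. Anxa5 ranked number 57 from the top among the 9971 log2 fold changes. The value rested on 151 control and 554 RANKL counts, and only 6 of these were in control replicate 4, the shallowest library. Without any 1 library the log2 fold change ran from 3.08 to 3.50.

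M cells are the antigen-sampling cells of the follicle epithelium, and RANKL is known to drive their differentiation. All 8 tested genes of a list of 10 M cell markers, which does not include Anxa5, were higher with RANKL. Among all genes tested, 13.6% were higher. The filter on low counts keeps a gene that is high enough in 1 group alone. Spib, Sox8, Tnfaip2 and Ccl20, at control means of 4.35, 0.131, 2.73 and 2.87 CPM, entered the test only through their RANKL libraries. The count of 8 of 8 is thus partly fixed by the filter and is a description only. The summed level of the 10 markers was 111 to 121 CPM in control and 2000.3 to 2258 CPM in RANKL libraries. Most of the RANKL sum was 1 gene, Spib, which went from 4.35 ± 1.42 to 1607 ± 124 CPM (SD, n = 4 each). The log2 fold changes of the 8 tested markers ran from 1.29 to 8.56. The mature M cell marker Gp2 had 0 counts in all 8 libraries. These markers moved with Anxa5, S100a11 and S100a10, and their part in the change of these genes was not tested.

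Anxa4 was lower with RANKL by a smaller amount. Annexin A4 is an epithelial annexin that gathers on membranes in patches. Control replicates 1 to 4 held 324, 327, 292 and 318 CPM, against 266, 247, 246 and 237 CPM in RANKL replicates 1 to 4. All RANKL libraries lay below the lowest control library, although the gap between the groups was narrow. Anxa4 fell by 0.35 on the log2 scale (standard error 0.10, edgeR adjusted p = 0.0072), from 315 ± 15.7 to 249 ± 12.3 CPM (SD, n = 4 each), and was lower by a fitted fold of 1.27. The exact permutation p was 0.0286. Among markers of other lineages, 3 of 6 stem cell markers, 3 of 6 epithelial markers and 1 of 10 enterocyte markers were lower. In these lists 1 stem cell and 1 enterocyte marker were higher. Of the secretory lineages, 1 of 6 Paneth and 1 of 7 goblet cell markers were lower, and 2 of 7 enteroendocrine markers were higher. Of all genes tested, 12.4% were lower and 13.6% higher, so lists with 1 marker called in a direction are near these shares. The part of these markers in the falls of Anxa4 and S100a6 was not tested.

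Anxa2 was the most abundant member, and its groups overlapped. Annexin A2 binds membranes and actin and carries S100A10 or S100A11 on its tail. It was at 1106, 1273, 1563 and 1224 CPM in control replicates 1 to 4 and at 1242, 1328, 1257 and 967 CPM in RANKL replicates 1 to 4. The highest library was a control and the lowest a RANKL library, with the other 6 mixed between them. The log2 fold change was -0.11 (95% interval -0.33 to 0.11, edgeR adjusted p = 0.50).

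Anxa13 was next in level and also overlapped between groups. Annexin A13 is the intestinal annexin, a lipid-anchored protein of apical vesicle traffic in enterocytes. In GENCODE release M21 the counted Anxa13 locus is typed as a processed transcript, while the other members are typed as protein-coding. Control replicates 1 to 4 held 819, 756, 717 and 645 CPM, and RANKL replicates 1 to 4 held 743, 688, 648 and 706 CPM. The lowest control library lay below all 4 RANKL libraries and the highest above them all. The log2 fold change was -0.09 (95% interval -0.28 to 0.11, edgeR adjusted p = 0.55).

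The other 3 annexins were rare in these organoids. Anxa3 was at 3.82, 6.17, 4.56 and 6.88 CPM in control replicates 1 to 4 and at 3.23, 6.19, 8.34 and 3.84 CPM in RANKL replicates 1 to 4. Its groups overlapped fully, on 75 and 34 counts in all, and the 95% interval of its log2 fold change ran from -0.44 to 0.97 (value 0.27, edgeR adjusted p = 0.62). Without RANKL replicate 3 the value was -0.064, so no direction can be given. The exons of Anxa3 overlap those of Gm42603 on the same strand, which held 2 counts in all. Anxa1, whose product damps inflammation through formyl peptide receptors, had 3 counts in control replicate 3 and 0 in the other 7 libraries. For the RANKL group as a whole, a count of 0 allows up to 0.521 CPM, at counting error only. Anxa11 had 5 counts over all controls and 2 over all RANKL libraries, with 0 in 4 of the 8. No fold change is given for either gene, and a difference was not detectable at this depth.

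Among the S100 members, S100a11 and S100a10 rose and S100a6 fell. S100A11 is a calcium-dependent partner of annexins A1 and A2. S100a11 was at 46.1, 26.3, 39.8 and 37.8 CPM in control replicates 1 to 4 and at 82.3, 88.8, 77.2 and 60.4 CPM in RANKL replicates 1 to 4. The groups did not overlap, and the lowest RANKL library, replicate 4, was still clear of the highest control. S100a11 rose from 37.5 ± 8.26 to 77.2 ± 12.1 CPM (SD, n = 4 each). The log2 fold change was 1.00 (standard error 0.16, 95% interval 0.68 to 1.33, edgeR adjusted p = 1.3e-05), a fitted fold of 2.01. Its pseudogene S100a11-ps had 0 counts in all 8 libraries.

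S100A10 is the S100 protein that holds annexin A2 without needing calcium. S100a10 was at 110, 108, 83.6 and 86.0 CPM in control replicates 1 to 4 and at 136, 149, 154 and 161 CPM in RANKL replicates 1 to 4. Control replicates 1 and 2 were higher than the other 2 controls, and all 4 lay below the RANKL libraries. S100a10 rose from 96.9 ± 13.99 to 150.1 ± 10.9 CPM. The log2 fold change was 0.62 (standard error 0.12, 95% interval 0.38 to 0.85, edgeR adjusted p = 0.00014), a fitted fold of 1.53.

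S100A6, also called calcyclin, binds annexin A11 and is known from proliferating cells. S100a6 was at 195, 196, 226 and 267 CPM in control replicates 1 to 4 and at 160, 139, 144 and 154 CPM in RANKL replicates 1 to 4. The RANKL libraries lay close together below all controls, while the controls were spread more widely. S100a6 fell by 0.54 on the log2 scale (standard error 0.11, edgeR adjusted p = 0.00041), from 221 ± 33.6 to 149 ± 9.40 CPM, and was lower by a fitted fold of 1.45. For S100a11, S100a10 and S100a6 the exact permutation p was 0.0286 each. For the 5 members that passed, the groups did not overlap, which held for 24.6% of all genes tested, 13.1% with RANKL above and 11.5% with RANKL below.

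S100a11 and S100a10, the pair that rose, are near neighbours on chromosome 3. In GENCODE release M21 on GRCm38, S100a11 lies at chr3:93520488-93526287 and S100a10 at chr3:93555080-93564643, both on the plus strand. The gap between them is 28.8 kb and holds 0 protein-coding genes and 1 non-coding gene. S100a6, which fell, lies 2.90 Mb from S100a11, at chr3:90612882-90624181, within the main S100 gene cluster. Anxa5 is on the same chromosome, at chr3:36448923-36475894 on the minus strand, far from all 3. Anxa2 (chr9:69453620-69491795), Anxa4 (chr6:86736840-86793584) and Anxa13 (chr15:58341471-58389244) are each on another chromosome.

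The balance between annexin A2 and its S100 partners was read as a ratio of counts within each library, which does not depend on how libraries are scaled. Of 4 ratios planned, the pair with Anxa1 or Anxa11 rested on counts at or near 0 and is given no value. Anxa2 tags per S100a10 tag were 10.05, 11.8, 18.7 and 14.1 in control and 9.11, 8.87, 8.16 and 5.98 in RANKL replicates 1 to 4. All RANKL ratios were lower than all control ratios, and the gap between control replicate 1 and RANKL replicate 1 was small. The mean log2 ratio differed by -0.75 (exact permutation p = 0.0286, 0.0571 after adjustment over the 4 ratios), so the difference did not pass 0.05 once adjusted.

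Anxa2 tags per S100a11 tag were 24.0, 48.2, 39.2 and 31.7 in control and 14.9, 14.9, 16.2 and 15.9 in RANKL replicates 1 to 4. The RANKL libraries were nearly equal, while the controls spread widely above them. The mean log2 ratio differed by -1.16, with the same exact permutation p of 0.0286 and adjusted p of 0.0571. With 4 libraries a group, 0.0286 is the smallest p this test can reach.

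**Figure D2:**
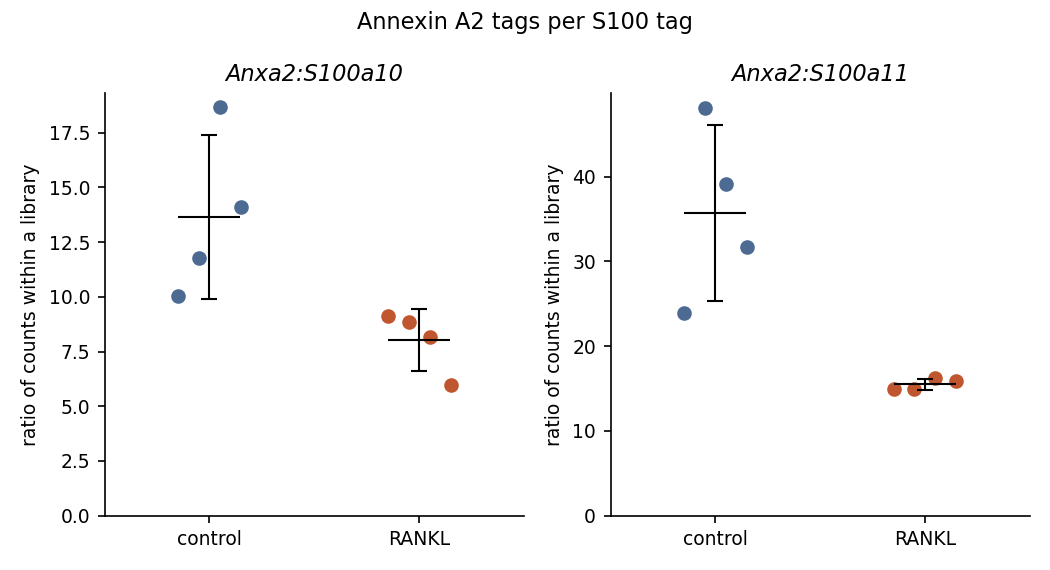
Ratio of Anxa2 counts to S100a10 counts (left) and to S100a11 counts (right) within each library (linear axes from 0), for 4 control (blue) and 4 RANKL (orange) libraries, with mean and SD. Every RANKL ratio lies below every control ratio, and the controls are more widely spread.

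Anxa2, Anxa13, Anxa4 and S100a6 led the members in control organoids, and S100a10, S100a11, Anxa5 and Anxa3 followed. No 2 neighbours in this order overlapped over the 4 libraries. In RANKL organoids the first 3 places were the same. S100a10 and S100a6 then stood level at 150.1 and 149 CPM, in this order in 3 of 4 libraries and with overlapping values. Anxa5 passed S100a11 in mean level, at 97.6 against 77.2 CPM, in 4 of 4 libraries.

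**Figure D3:**
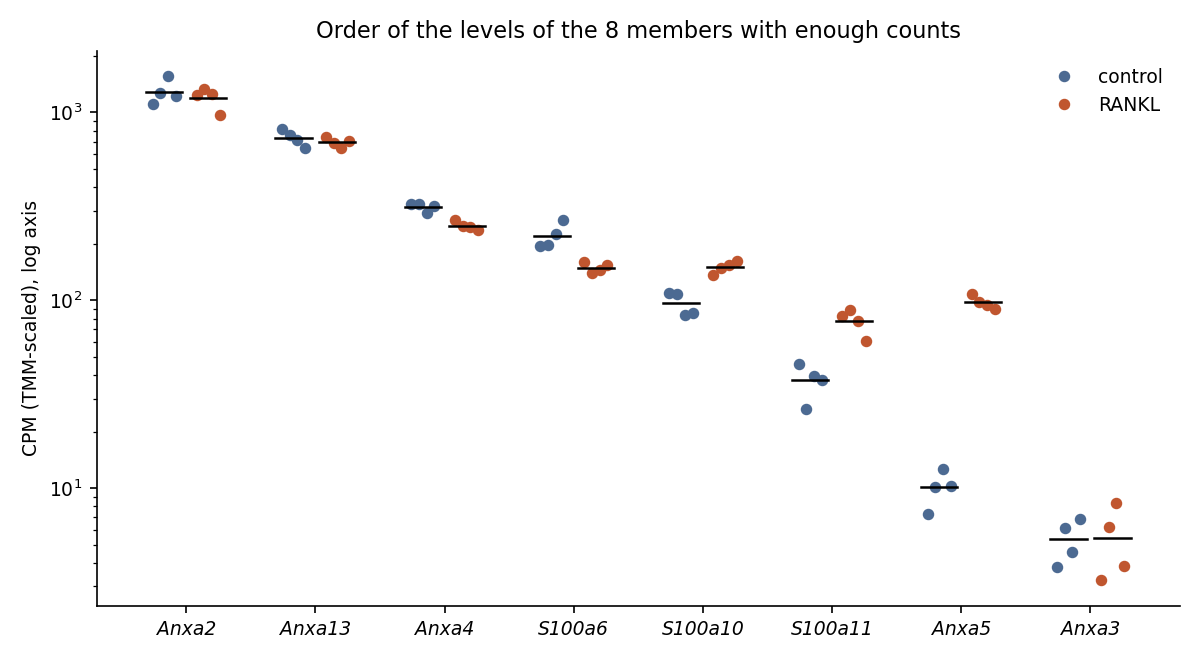
CPM (TMM-scaled, log axis) of the 8 members with enough counts, ordered by control level, with a point for each of the 4 control (blue) and 4 RANKL (orange) libraries and a line at each mean. Anxa5 moves from next to last to a level between S100a6 and S100a11, while S100a10 and S100a6 come level.

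The summed level of the members changed little beside these shifts. The 7 annexins summed to 2357 ± 170 CPM in control and 2247 ± 170 CPM in RANKL libraries, and the 3 S100 genes to 355 ± 25.3 and 377 ± 1.01 CPM. These sums are descriptions without a test, and the annexin sum is mostly Anxa2 and Anxa13. Of all member tags in a library, Anxa5 held a mean of 0.371% in control and 3.72% in RANKL organoids. The share of S100a10 was 3.59% in control and 5.76% with RANKL, that of S100a11 1.39% and 2.93%, and that of S100a6 8.17% and 5.72%. Anxa2 held 47.4% and 45.5%.

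The remaining genes of both families moved less clearly. Of 5 other annexins, 1 had enough counts to test, Anxa7, an annexin of secretory granules. Anxa7 was at 40.3 ± 8.53 CPM without and 57.0 ± 5.56 CPM with RANKL. Its log2 fold change was 0.44 (standard error 0.15, edgeR adjusted p = 0.036). DESeq2 did not call it (adjusted p = 0.11), and it also missed the threshold without control replicate 3 (edgeR adjusted p = 0.15), without control replicate 4 (0.053) and without RANKL replicate 1 (0.078), 2 (0.059) or 4 (0.12). It was not called with no filter on low counts either (edgeR adjusted p = 0.074).

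Of 13 other S100 genes listed and found in the table, 7 were tested and 0 passed with edgeR, DESeq2 or limma-voom, while 2 had an unadjusted edgeR p under 0.05. Their median log2 fold change was -0.29. S100g, the vitamin D-dependent calbindin that ferries calcium in enterocytes, was chosen after its values were seen, as the most abundant of them. Its mean was 284 ± 16 CPM without and 282 ± 24.7 CPM with RANKL (SD, n = 4 each), with a 95% interval of the log2 fold change from -0.21 to 0.19 (edgeR adjusted p = 0.96).

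**Figure D4:**
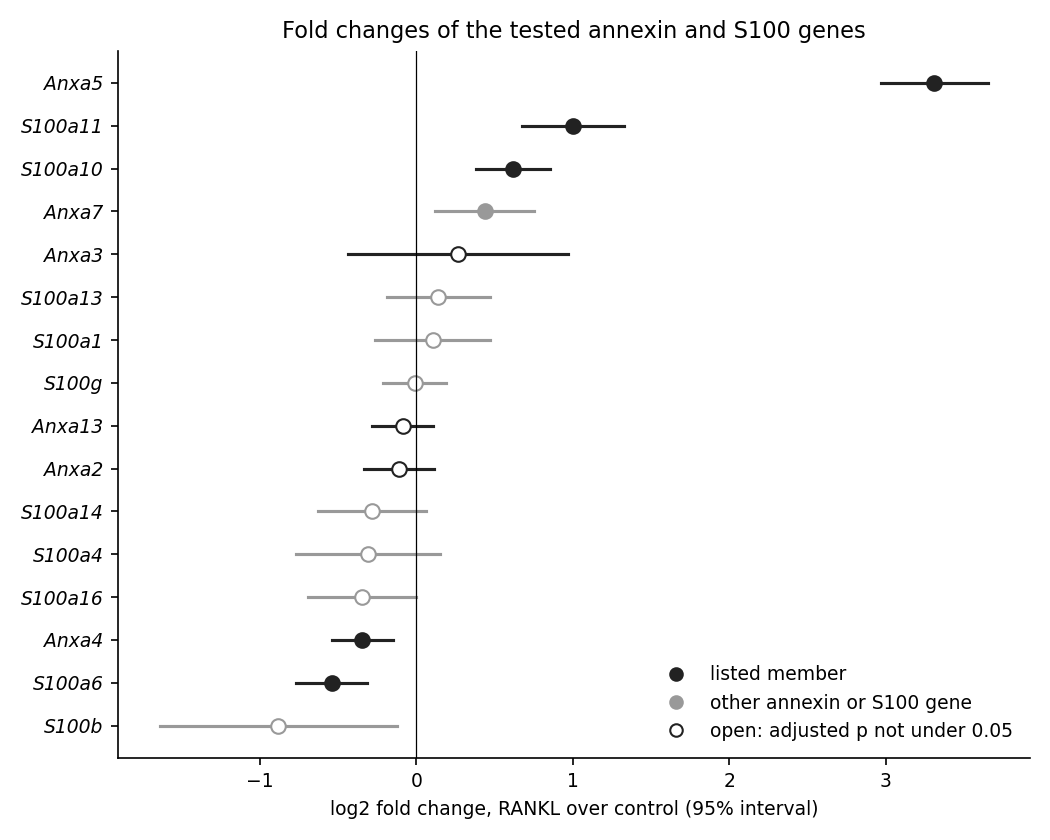
Log2 fold change of RANKL over control with its 95% interval from edgeR's quasi-likelihood fit, for the tested members (black) and other annexin and S100 genes (grey), where filled points have an adjusted p under 0.05. Anxa5 stands farthest to the right at 3.31, and S100a6 (-0.54) and Anxa4 (-0.35) are the filled points below 0.

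Genes around these families were followed in 4 further lists. Of 20 partners, receptors and substrates of annexins and S100 proteins, 9 were tested and 0 passed with edgeR or DESeq2, while limma-voom called 1. An unadjusted edgeR p under 0.05 was found for 3 of them, and the median log2 fold change was -0.11. The gene limma-voom called, Myh9, the heavy chain of non-muscle myosin, is named after its values were seen. Its log2 fold change was 0.28 (edgeR adjusted p = 0.078) and 0.34 with limma-voom (adjusted p = 0.040).

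Of 23 genes of membrane repair, 16 were tested, 5 were higher and 2 lower, with a median log2 fold change of 0.09. Capn1, the calcium-activated protease calpain 1, went from 261 ± 55.8 to 158 ± 22.7 CPM and fell by 0.73 on the log2 scale (edgeR adjusted p = 3.8e-05). Ehd1, an ATPase that shapes recycling endosomes, rose by 0.62, from 127 ± 15.3 to 198 ± 18.4 CPM (edgeR adjusted p = 6.5e-05). Stx4a, a fusion protein of the plasma membrane, rose by 0.50 (edgeR adjusted p = 0.0050). The ESCRT-III subunit genes, whose products pinch off damaged membrane, moved in both directions. Of these, Chmp2a rose by 0.46 (edgeR adjusted p = 0.0055) and Chmp4b fell by 0.48 (adjusted p = 0.00080). Named after their values were seen, Chmp2b rose by 0.34 (adjusted p = 0.019) and Chmp4c by 0.30 (0.049), while Chmp3 was at 0.0065 (0.97) and did not pass. At this threshold the shares higher and lower were 5 and 2 of 16, and 13.6% and 12.4% of all genes tested were called in each direction.

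Of 16 copines and other C2 domain proteins, which bind phospholipids with calcium as annexins do, 4 were tested and 1 was higher. That gene, Esyt2, ties the endoplasmic reticulum to the plasma membrane and rose by 0.75 (standard error 0.14, edgeR adjusted p = 0.00011). Of 21 EF-hand genes other than S100, 16 were tested, 5 were higher and 1 lower, with a median log2 fold change of 0.15. Beside both lists, 13.6% of all genes tested were higher and 12.4% lower, and no test of either list was run. Gca, for grancalcin, rose by 1.35 (edgeR adjusted p = 0.00026) at a low level, from 6.19 ± 1.05 to 17.7 ± 6.14 CPM. Cib1, a calcium- and integrin-binding protein, rose by 0.67 (adjusted p = 3.5e-05), Sdf4, a Golgi protein, by 0.43 (0.0030), and Efhd2, an actin-binding protein, by 0.43 (0.0090). Chp2, which binds sodium-proton exchangers, fell by 0.62 (adjusted p = 0.00042). No tested gene of the 6 lists had a log2 fold change as large as that of Anxa5.

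**Figure D5:**
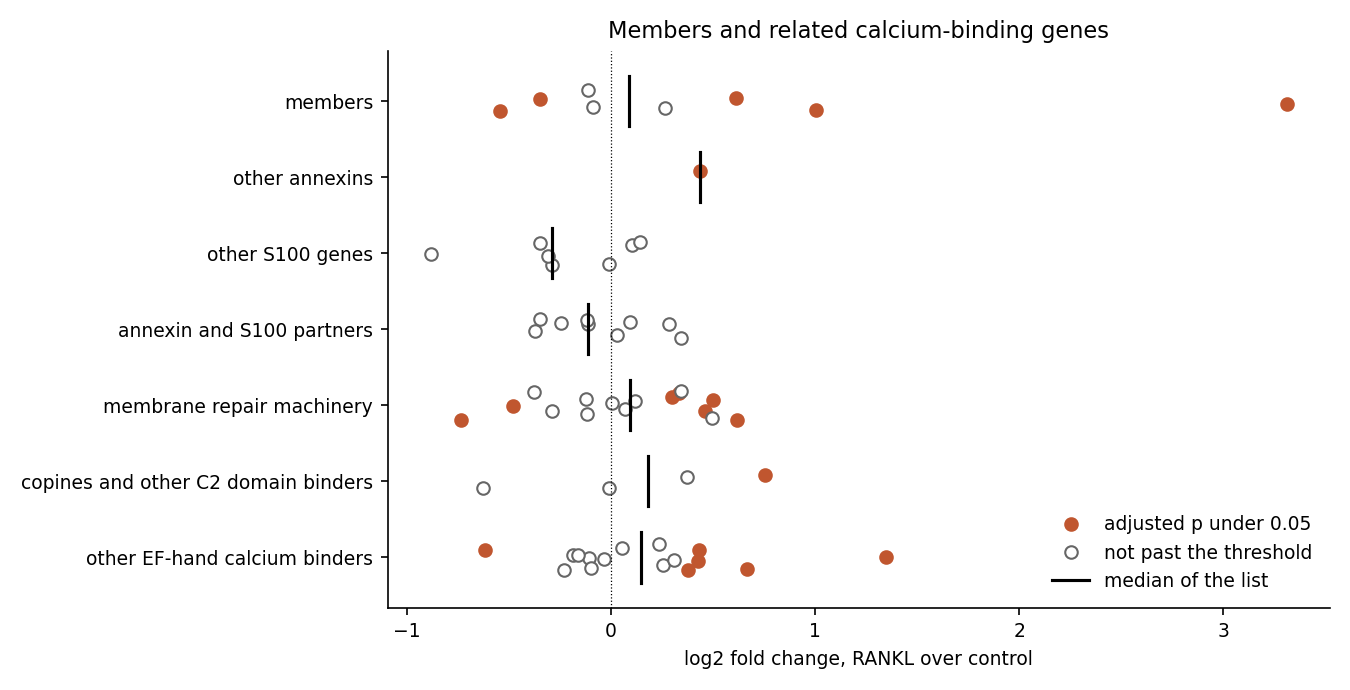
Log2 fold change of RANKL over control for each tested gene of the members and of 6 lists of related genes, where filled points have an edgeR adjusted p under 0.05 and the black bar is the median of the list. The medians lie between -0.29 and 0.44, and Anxa5 at 3.31 is the point farthest from 0.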

How the data were processed

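For 4 control and 4 RANKL libraries, organoid RNA was sequenced with the QuantSeq 3′ forward kit as single reads of 50 bases. After trimming (BBDuk) and removal of abundant sequences (bowtie2), the authors aligned reads to GRCm38 (mm10) with STAR. Strand-specific gene counts were made with featureCounts on Ensembl release 94. The deposited values are these raw counts, not normalized, and PCR copies are counted as reads. The authors tested with DESeq2.

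Groups and replicate numbers came from the sample labels. Symbols and positions came from GENCODE release M21 by gene identifier, which named 54409 of 54532 genes. In R 4.3.3, edgeR 4.0.16 was run with TMM factors, its filter on low counts (9971 genes left) and its quasi-likelihood test between the groups. P-values were adjusted by Benjamini-Hochberg over these genes, with 0.05 as the threshold. Exact permutation tests were two-sided, over 70 assignments, on CPM or on log2 ratios with 0.5 added to each count. Alternatives were other scalings, DESeq2 1.42.0, limma 3.58.1 with voom, other filters, the replicate block, a depth covariate, thinning to 583663 counts and leaving out each library. The fit was tested on simulated data.

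Counts set the precision: a group total of 0 allows up to 3 counts, or 0.185 CPM in the control and 0.521 CPM in the RANKL group. Library pairs of a group differed by more than counting noise (chi-square over degrees of freedom 1.25 to 11.9), so none were merged. The members and lists were chosen with earlier results of these data known. Genes named were all members, Tnfrsf11a, and of each related list up to 5 genes past the threshold with the largest change at a mean of at least 5 CPM. S100g, Myh9, Chmp2b, Chmp4c, Chmp3, Tnfsf11, Gp2, Spib, Sox8, Tnfaip2 and Ccl20 do not follow this rule and were picked with their values known. The same holds for Anxa10, S100a4, S100a14, S100b and Ppp5c in the last section. Protein sequences were not used here.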

Additional observations from a re-analysis of the deposited data

Results flagged for a closer look

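Among 47 sets of 4 libraries examined for 1 library far from the others by Dixon's test, 2 had such a library, and chance gives 2.35. For Anxa1, control replicate 3 was at 0.760 CPM while the other 3 controls were at 0 CPM, which is 3 counts against none. For Ehd1, RANKL replicate 3 was at 225 CPM and the next RANKL library at 191 CPM, and without that library the groups still did not overlap.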

How the results depend on the processing

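The calls and directions of Anxa4, Anxa5, S100a6, S100a10 and S100a11 held in every alternative fit that could be run for them, including each of the 8 left-out libraries, and at an adjusted p of 0.01. Of these 5, Anxa5 and S100a11 also had a fold of at least 2. Anxa5 ran from 3.04 to 3.53 on the log2 scale, S100a11 from 0.85 to 1.33, S100a10 from 0.52 to 0.76, S100a6 from -0.67 to -0.47 and Anxa4 from -0.39 to -0.32, with adjusted p of at most 0.030. A filter of at least 10 counts in every library removed Anxa5 and Anxa3, and thinning removed Anxa3, so these have no value there. Anxa3 ran from -0.064 (without RANKL replicate 3) to 0.46 when 1 library was left out. Of all recomputed values, 300 kept their direction and side of the threshold or stayed close, 23 counts moved by over 1.5 times, 2 ratios passed the threshold and 1 value changed sign.

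The number of genes called was 2587, against 1431 with thinned libraries, 1636 at an adjusted p of 0.01 and 577 at a fold of at least 2. It ran from 1853 (without RANKL replicate 4) to 2601 with 1 library left out. The median log2 fold change of all genes shifted by 0.10 with DESeq2, by -0.11 without a filter on low counts and by at most 0.02 with other scalings. The DESeq2 and unfiltered fits also tested more genes of low count, and the reason for their opposite shifts was not tested.

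Other annexins past the threshold numbered 0 with DESeq2, with the depth covariate and at an adjusted p of 0.01, and 0 to 2 with 1 library left out. Anxa7 lost its call in 5 of these 8 fits, and Anxa10, at 76 counts in all, gained one without control replicate 1, control replicate 4 or RANKL replicate 2. With no filter on low counts the count stayed at 1, but Anxa7 lost its call (edgeR adjusted p = 0.074) and Anxa10 gained one (0.046). Other S100 genes numbered 1 with the depth covariate (S100a4) and 0 to 2 with 1 library left out, namely S100a4 and S100b without control replicate 1, S100b without control replicate 2 and S100a14 without control replicate 3. Partners numbered 1 with library totals alone, limma-voom, the replicate block and thinned libraries (Myh9) and with the depth covariate (Ppp5c), and 0 to 1 with 1 library left out, Myh9 without control replicate 3 or 4. With thinned libraries, membrane repair genes numbered 4 and EF-hand genes 3. With no count added, the log2 ratios differed by -0.75 (S100a10) and -1.16 (S100a11), past the threshold since only 3 ratios could then be adjusted together (adjusted exact permutation p = 0.0429). They ran from -0.88 to -0.58 and from -1.34 to -0.999 with 1 library left out. Causes were not tested where none is given.

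Same-numbered libraries correlated between -0.03 and 0.10, and 4 a group are too few to exclude pairing. The replicate block gave 2610 calls and changed none of a member. The control libraries were deeper on the whole, so depth and group cannot be fully told apart, and counts of Anxa1, Anxa11 and Anxa3 limit what can be said of them.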
